A study of Mus musculus with 6 samples.

Results

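Cytochrome P450 monooxygenases of families Cyp1, Cyp2 and Cyp3 carry out much of the oxidation of drugs, pollutants, steroids and polyunsaturated fatty acids in the liver. The genes described here are the rows of the liver count table whose symbol starts with Cyp1, Cyp2 or Cyp3 followed by a subfamily letter and a number, without the Cyp2c subfamily. They were 46 of 23412 rows, and 32 of them had at least 10 counts summed over the 6 libraries. RNA came from livers of C57BL/6J mice, an inbred strain, labelled 8 weeks of age. All mice had eaten a high-fat diet for 4 weeks; 3 libraries were from mice then injected subcutaneously with liraglutide at 300 µg/kg for 3 days (Lira161, Lira162 and Lira164), and 3 were from mice given PBS (PBS155, PBS157 and PBS158). Liraglutide is a long-acting agonist of the glucagon-like peptide 1 receptor, and the comparison addressed what a short treatment on this diet does to liver transcripts. No group with matched food intake was analysed here, so a response to the drug and a response to eating less cannot be told apart. Libraries held 20888991 to 25404192 counts with liraglutide and 21901811 to 27007182 counts with PBS. Nothing in the labels states that each library is a different animal. The p-values therefore rest on how much these libraries vary, part of which may be technical.

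These enzymes sit in the membrane of the endoplasmic reticulum, bind haem and take electrons from cytochrome P450 reductase (Por) and, for some reactions, cytochrome b5. In hepatocytes many of them are transcribed under ligand-activated receptors: the aryl hydrocarbon receptor (Ahr) acts on Cyp1a genes, the constitutive androstane receptor (CAR, Nr1i3) on Cyp2b genes and the pregnane X receptor (PXR, Nr1i2) on Cyp3a genes. Hepatocyte nuclear factor 4 alpha (Hnf4a) maintains many of them without a foreign ligand. In mouse liver several members also differ between the sexes under growth hormone, and many are highest in hepatocytes around the central vein.

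Of the 32 members with at least 10 counts, 27 passed the low-count filter and were tested. With liraglutide 10 of them fell and 0 rose at an adjusted p under 0.05 in edgeR's quasi-likelihood test, a threshold used throughout. Over all 12626 genes tested, 8.77% were called, 4.69% as lower and 4.08% as higher. At unadjusted p under 0.05, 16 members were lower and 0 higher, against 13.1% and 12.5% of all tested genes, and DESeq2 and limma-voom likewise called 0 members higher. The 10 that fell were Cyp1a2, Cyp2a12, Cyp2d13, Cyp2d22, Cyp2d40, Cyp2f2, Cyp2j5, Cyp2j6, Cyp2r1 and Cyp2u1, which lie in 7 subfamilies, and they fell 1.47-fold to 2.89-fold. The median log2 fold change of the 27 was -0.56, against 0.01 over all tested genes, and 24 of them were below 0, which was true of 48.4% of all tested genes. In 15 members the 3 liraglutide libraries were all below the 3 PBS libraries and in 0 they were all above; over all tested genes the groups did not overlap in 31.3%, with liraglutide lower in 16.4%. Abundant genes are called more easily, so the same was done for genes averaging at least 50 CPM (counts adjusted for the depth of the library). There, 8 of 17 members fell, against 8.9% of 2887 genes, and in 12 of the 17 all liraglutide libraries were below all PBS libraries, against 23.7% of those genes. The number of members that fell was 5 without Lira161, 5 without Lira162 and 4 without PBS158, and 8 to 11 with any other library left out. Calls over all tested genes also dropped, from 1107 to 462 without Lira161, 393 without Lira162 and 414 without PBS158.

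**Figure D1:**
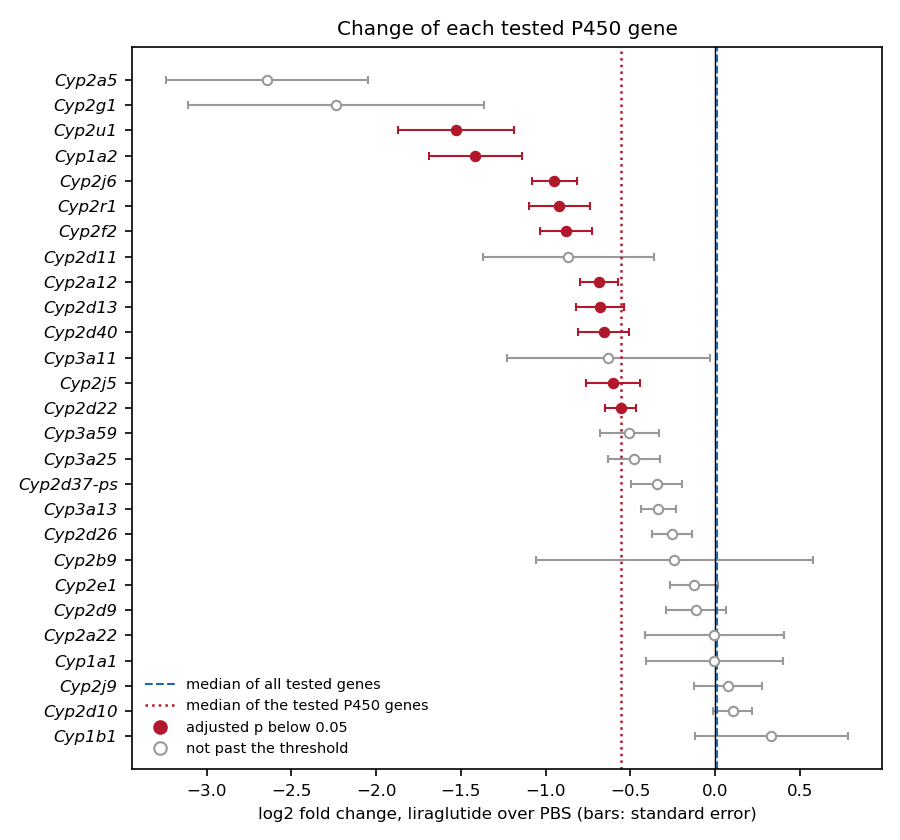
Log2 fold change of each of the 27 tested members, liraglutide over PBS (horizontal axis; bars, standard error of the edgeR fit), ordered by size, with filled points for adjusted p under 0.05. The dotted line is the median of the 27 (-0.56) and the dashed line that of all tested genes (0.01). All 10 called members lie left of 0, and Cyp1b1, Cyp2d10 and Cyp2j9 are the only tested members to the right of it.

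**Figure D2:**
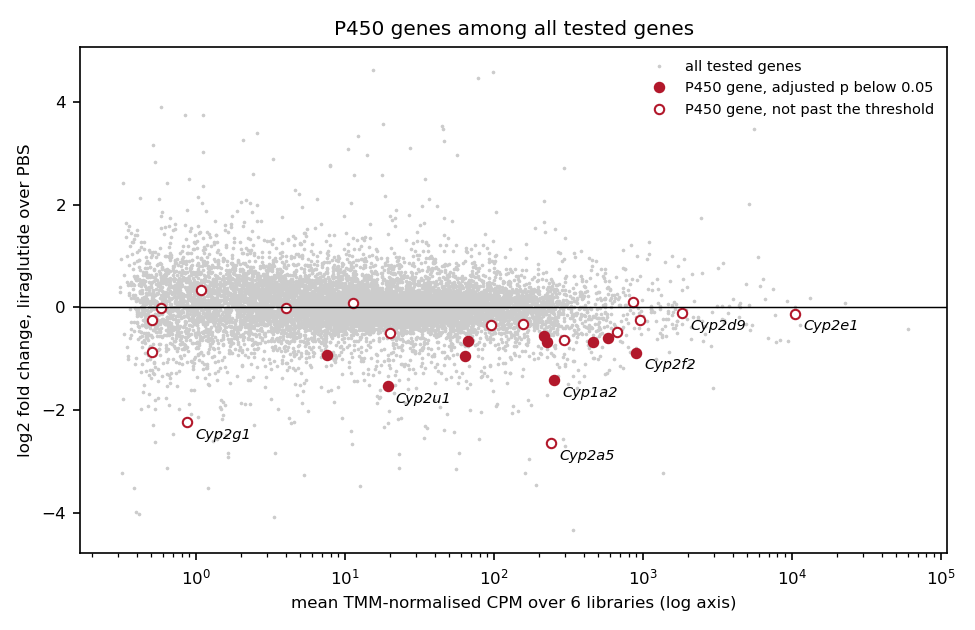
Mean CPM (log axis) against log2 fold change, liraglutide over PBS, for all 12626 tested genes (grey), with the 27 members in red, filled where called. Members span the range from under 1 CPM to the most abundant transcripts of the liver, and 24 of 27 lie below 0.

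The 14 members with fewer than 10 counts contributed nothing to these figures. Of these, 10 had 0 counts in every library: Cyp2b19, Cyp2b23, Cyp2j12, Cyp2j13, Cyp2t4, Cyp2w1, Cyp3a16, Cyp3a41a, Cyp3a41b and Cyp3a44. A count of 0 allows up to 3 counts, which is 0.110 to 0.145 CPM depending on the library. The other 4 had 1 to 5 counts in all, among them Cyp2b10, the main CAR target among mouse P450 genes, with 5. The 5 members with at least 10 counts that were too low for the test were Cyp2a4, Cyp2d12, Cyp2j8, Cyp2s1 and Cyp3a57, with 18 to 52 counts over the 6 libraries and at most 15 in any library. Cyp3a57, with 18 counts, lay just inside the limit of 10 counts and Cyp2b10, with 5, just outside it. The Cyp3a41 genes, known as female-specific in mouse liver, differ in 2 of 1515 coding bases; 98.6% of the 50-base windows of Cyp3a41a transcripts also occur in another gene, so reads discarded as matching several genes would leave these rows near 0 whatever their level.

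Cyp2e1, which oxidises ethanol, paracetamol and ketone bodies, was by far the most abundant member and did not change detectably. It had 10708, 8824 and 10791 CPM in Lira161, Lira162 and Lira164, against 10025, 11774 and 11283 CPM in PBS155, PBS157 and PBS158. The groups overlapped, and the log2 fold change was -0.13 ± 0.14 (SE; adjusted p = 0.619, edgeR; chromosome 7, 140763739 to 140774987, GRCm38). It took 1.03% ± 0.115 of all counts with liraglutide and 1.08% ± 0.0741 with PBS (SD, n = 3 each), more than all other members together. Those others summed to 0.710%, 0.622% and 0.706% of counts in the liraglutide libraries, against 0.887%, 0.872% and 0.947% in the PBS libraries. Without Cyp2e1, the share of the liver's counts that went to these genes was thus lower in every liraglutide library than in any PBS library. Whether hepatocytes were fewer or each held less of these transcripts cannot be told apart in bulk tissue.

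**Figure D3:**
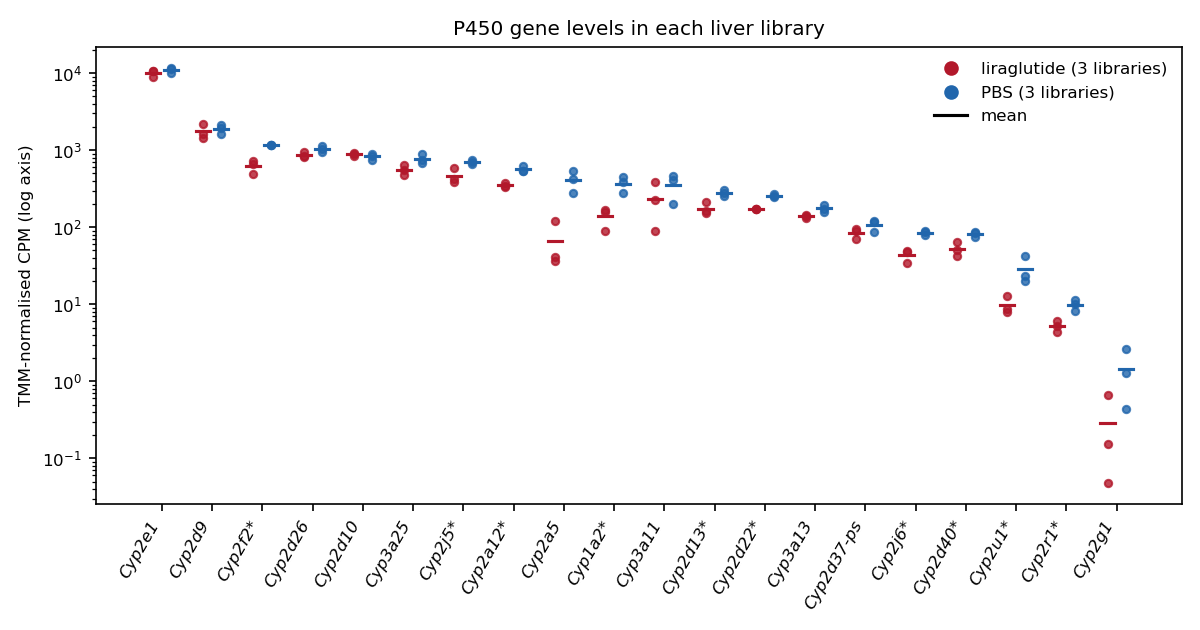
CPM (log axis) in each of the 6 libraries for the members named by value, liraglutide (red) left of PBS (blue), with lines at the means of 3 libraries and an asterisk at each called gene. The spread within a group is narrow for Cyp2d22 and Cyp2a12 and wide for Cyp3a11 and Cyp2a5, and the Cyp2e1 groups overlap.

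Of the Cyp1 genes, Cyp1a2 was the abundant one and fell. Cyp1a2 metabolises caffeine and aromatic amines in pericentral hepatocytes and is a target of the aryl hydrocarbon receptor. It had 156, 90.2 and 169.8 CPM in Lira161, Lira162 and Lira164, against 447, 276 and 386 CPM in PBS155, PBS157 and PBS158. Every liraglutide library was below every PBS library, and the lowest was Lira162. Cyp1a2 was 2.67-fold lower with liraglutide (log2 fold change -1.42 ± 0.27, SE; adjusted p = 0.0248, edgeR; chromosome 9, 57676937 to 57683703). Cyp1a1, the other Cyp1a gene and the one that rises most with aryl hydrocarbon receptor ligands, had 0.386 to 0.708 CPM with liraglutide and 0.428 to 0.768 CPM with PBS, near the limit of detection in both. Cyp1b1, another target of that receptor that in liver is known mainly from stellate cells, had 0.820 to 1.4996 CPM with liraglutide and 0.384 to 1.4987 CPM with PBS (adjusted p = 0.684, edgeR).

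The Cyp2a, Cyp2b, Cyp2f and Cyp2g members lie in a cluster on chromosome 7 and did not move alike. Cyp2f2, the enzyme that activates naphthalene in mouse airway and liver, had 730.0, 487 and 671 CPM in the liraglutide libraries, against 1153, 1158 and 1162 CPM in the PBS libraries. The PBS libraries agree closely, and all liraglutide libraries were lower. It fell 1.84-fold with liraglutide (log2 fold change -0.88 ± 0.15, SE; adjusted p = 0.0116, edgeR; chromosome 7, 27119909 to 27133660). Cyp2a12, which hydroxylates testosterone and bile acids in the mouse, had 348, 338 and 372 CPM with liraglutide, against 535, 536 and 629 CPM with PBS. Its groups did not overlap either, with a 1.61-fold fall (log2 fold change -0.68 ± 0.11, SE; adjusted p = 0.00901, edgeR; chromosome 7, 27029081 to 27037375). Its neighbour Cyp2a22 had 2.51 to 6.64 CPM with liraglutide and 3.04 to 5.57 CPM with PBS, which overlapped.

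Cyp2a5, the coumarin and nicotine hydroxylase of mouse liver, had the lowest log2 fold change of all tested members but missed the threshold. It had 40.7, 36.5 and 122 CPM in Lira161, Lira162 and Lira164, against 425, 281 and 538 CPM in PBS155, PBS157 and PBS158. The groups were far apart, and Lira164 stood well above the other liraglutide libraries. The log2 fold change was -2.64 ± 0.59 (SE; 6.25-fold; adjusted p = 0.0604, edgeR; chromosome 7, 26835305 to 26843548). Without Lira164 it was -3.44 with an adjusted p of 0.00142 in the same edgeR test. With any other library left out Cyp2a5 stayed uncalled, with an adjusted p of up to 0.157 in that test. With all libraries, DESeq2's Wald test and limma-voom called it, as did edgeR with library totals or a filter at a mean CPM of 5. In edgeR with DESeq2 size factors, no filter or the 10 most abundant genes left out it was not called. Per kilobase of exon, Cyp2a5 was the 14th most abundant ranked member with liraglutide, at 32.0 ± 23.3 RPKM (CPM divided by the exon length in kilobases). With PBS it was the 8th, at 200.1 ± 62.2 RPKM (SD, n = 3 each). Cyp2d13 had no annotated exon length and was left out of all ranks.

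Cyp2a5 has a close copy, Cyp2a4, a steroid hydroxylase higher in female mice, and how reads matching both were counted is not known. Their coding sequences differ in 23 of 1485 bases, and 28.1% of the 50-base windows of Cyp2a5 transcripts also occur in Cyp2a4. Cyp2a4 itself had 20 counts over the 6 libraries. Both 90-base stretches below run from coding base 580 to 669 (GRCm38, GENCODE M21; both genes on chromosome 7) and are shown as an example of the differences by which a read can be assigned. Capitals mark the 5 of the 23 differing bases that lie in them.
Cyp2a5: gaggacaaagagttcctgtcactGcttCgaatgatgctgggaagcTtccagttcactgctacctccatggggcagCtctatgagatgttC
Cyp2a4: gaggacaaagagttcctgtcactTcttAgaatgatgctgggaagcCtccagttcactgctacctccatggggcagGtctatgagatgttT
The pair Cyp2a12 and Cyp2a22 differs in 45 of 1479 coding bases, and 20.1% of the windows of Cyp2a12 are shared with Cyp2a22. In coding bases 1294 to 1383, also on chromosome 7, capitals mark the 8 bases that differ.
Cyp2a12: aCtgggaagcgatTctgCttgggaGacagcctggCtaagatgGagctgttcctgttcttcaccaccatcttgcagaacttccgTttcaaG
Cyp2a22: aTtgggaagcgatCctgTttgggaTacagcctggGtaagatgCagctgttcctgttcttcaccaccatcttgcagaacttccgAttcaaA
Elsewhere each pair is identical over up to 216 bases (Cyp2a5 and Cyp2a4) or 206 bases (Cyp2a12 and Cyp2a22), and reads that lie within such a run cannot be assigned to one gene.

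Lowly transcribed members of the cluster gave no call. Cyp2g1, an olfactory P450 in other tissues, had 1, 4 and 16 counts in Lira161, Lira162 and Lira164, against 12, 30 and 54 counts in PBS155, PBS157 and PBS158. The groups overlapped through Lira164 and PBS155, and the log2 fold change of -2.24 ± 0.87 (SE) had an adjusted p of 0.161 in edgeR. It was -3.68 without Lira164 and -1.51 without PBS158. Cyp2b9, known as higher in female mice, had 0.0964 to 0.833 CPM with liraglutide and 0.0856 to 0.989 CPM with PBS, and its fold change turned from below to above 0 when PBS155 was left out.

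The Cyp2d subfamily forms a cluster on chromosome 15 and is related to human CYP2D6, which metabolises many antidepressants and opioids. Of its 8 tested members, 3 fell and 5 did not pass the test. Cyp2d22, often taken as the mouse counterpart of CYP2D6, had 174, 175 and 175 CPM in the liraglutide libraries, against 246, 254 and 271 CPM in the PBS libraries. Libraries within each group were close, and the groups were clearly apart. It fell 1.47-fold with liraglutide (log2 fold change -0.56 ± 0.09, SE; adjusted p = 0.00939, edgeR; chromosome 15, 82370527 to 82380260). Cyp2d40 had 51.0, 41.8 and 63.8 CPM with liraglutide and 74.2, 85.3 and 87.8 CPM with PBS, a 1.58-fold fall (log2 fold change -0.66 ± 0.15, SE; adjusted p = 0.029, edgeR; chromosome 15, 82759833 to 82764183). Cyp2d13, which RefSeq lists as a transcribed pseudogene, had 163.95, 151 and 210.1 CPM with liraglutide and 256, 277 and 308 CPM with PBS, a 1.60-fold fall (log2 fold change -0.68 ± 0.14, SE; adjusted p = 0.0198, edgeR; chromosome 15, 82636750 to 82642045). In both, all liraglutide libraries were below all PBS libraries, and Lira164 was the highest of the liraglutide libraries.

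The 3 most abundant Cyp2d genes did not pass the test. Cyp2d9, a male-biased testosterone hydroxylase, had 2206, 1612 and 1452 CPM in the liraglutide libraries, against 1632, 2113 and 1958 CPM in the PBS libraries (log2 fold change -0.11 ± 0.18, SE; adjusted p = 0.725, edgeR). Cyp2d10 had 930.0, 896 and 850.4 CPM with liraglutide and 746, 853 and 894 CPM with PBS (log2 fold change 0.10 ± 0.12, SE; adjusted p = 0.622, edgeR). The groups overlapped in Cyp2d9 and Cyp2d10, and Cyp2d10 was the only member of at least 50 CPM whose estimate was above 0. Cyp2d26 had 849, 826 and 938 CPM with liraglutide and 1029.9, 953 and 1137 CPM with PBS; its groups did not overlap, but the log2 fold change of -0.26 ± 0.12 (SE) had an adjusted p of 0.215 in edgeR. The pseudogene Cyp2d37-ps had 94.5, 70.9 and 88.6 CPM with liraglutide and 86.3, 117 and 119.7 CPM with PBS (adjusted p = 0.193, edgeR). Cyp2d11 stayed under 1 CPM in every library. Of the 50-base windows of Cyp2d10, Cyp2d9 and Cyp2d40, 35.8%, 21.8% and 14.5% occur in another gene, so reads could be split between these rows; for Cyp2d22 it was 4.13%.

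**Figure D4:**
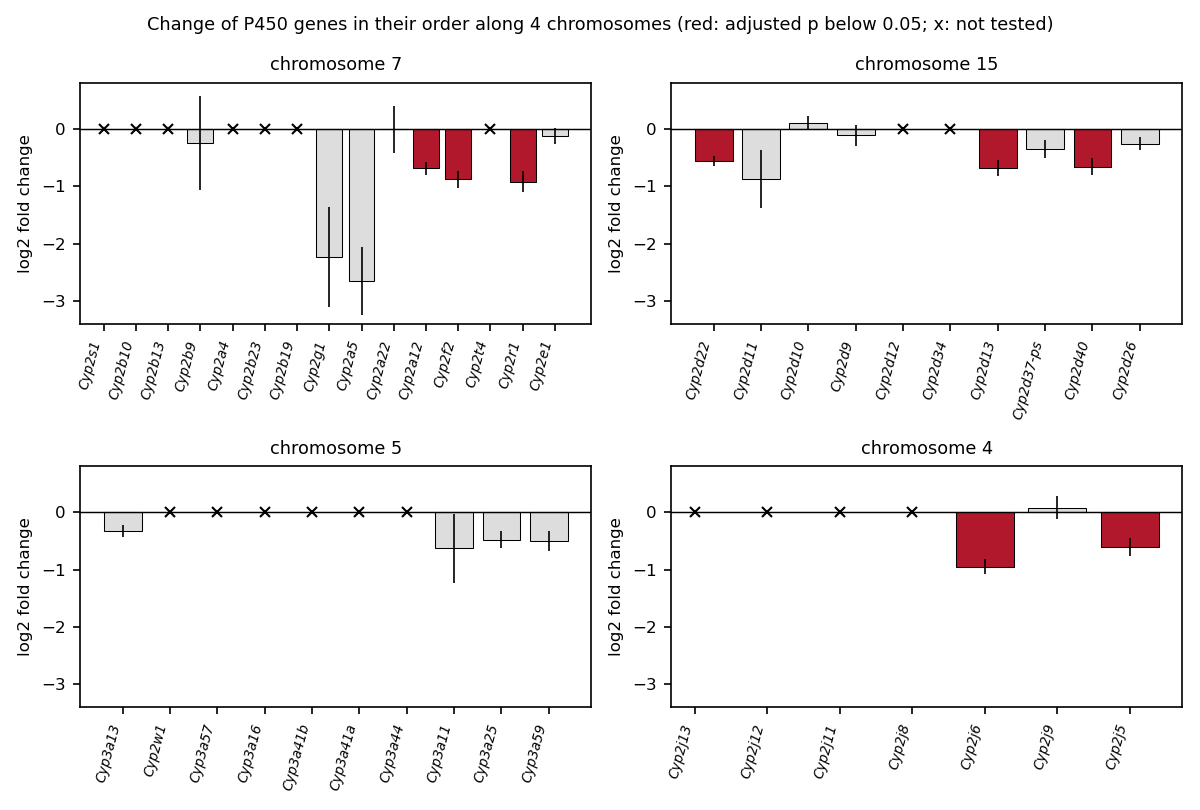
Log2 fold change, liraglutide over PBS, of members in their order along chromosomes 7, 15, 5 and 4 (vertical lines, standard error; red bars, adjusted p under 0.05; crosses, not tested). Called and uncalled genes stand side by side in the clusters of chromosomes 7 and 15, and the 4 tested Cyp3a genes of chromosome 5 hold no call.

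Of the 3 tested Cyp2j genes, which encode epoxygenases of arachidonic acid and related fatty acids, 2 fell. Cyp2j6 had 48.6, 34.8 and 48.1 CPM in the liraglutide libraries, against 78.9, 85.8 and 88.9 CPM in the PBS libraries. The groups lay well apart, with a 1.93-fold fall (log2 fold change -0.95 ± 0.13, SE; adjusted p = 0.00581, edgeR; chromosome 4, 96516138 to 96553661). Cyp2j5, the most abundant Cyp2j gene here, had 427, 387 and 584 CPM with liraglutide and 712, 654 and 756 CPM with PBS. All liraglutide libraries were lower, Lira164 least so, and the 1.52-fold fall was just past the threshold (log2 fold change -0.60 ± 0.16, SE; adjusted p = 0.049, edgeR; chromosome 4, 96628773 to 96664154). The call of Cyp2j5 ended when any library other than Lira164 was left out. Cyp2j9, described mainly from brain, had 9.62 to 14.7 CPM with liraglutide and 8.82 to 13.4 CPM with PBS, and the groups overlapped.

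Cyp2r1 and Cyp2u1 are single-gene subfamilies with narrow tasks, and both fell. Cyp2r1, the main liver enzyme that adds the side-chain hydroxyl group of circulating vitamin D, had 6.12, 4.40 and 5.17 CPM in the liraglutide libraries, against 10.1, 8.18 and 11.4 CPM in the PBS libraries. The groups did not overlap, and it fell 1.89-fold (log2 fold change -0.92 ± 0.18, SE; adjusted p = 0.0168, edgeR; chromosome 7, 114549682 to 114562972). Cyp2u1, a hydroxylase of long-chain fatty acids whose loss in humans causes a spastic paraplegia, had 8.05, 8.69 and 13.0 CPM with liraglutide and 42.8, 19.8 and 23.2 CPM with PBS. All liraglutide libraries were below all PBS libraries, and PBS155 stood far above the other PBS libraries. It was 2.89-fold lower with liraglutide, the largest fold among called members (log2 fold change -1.53 ± 0.34, SE; adjusted p = 0.0437, edgeR; chromosome 3, 131288441 to 131303227). An annotated transcript on the opposite strand, 4930534D22Rik, overlaps 548 bases of Cyp2u1 exons and has no row of its own, and another, Gm15883, overlaps 274 bases of Cyp2f2 exons. Whether counting used the strand is not known, so reads of these transcripts could be counted for the P450 genes.

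No Cyp3a gene passed the test, although all 4 tested members were below 0. Cyp3a11, the main PXR target and a relative of the human drug-metabolising enzyme CYP3A4, had 89.9, 223 and 381 CPM in Lira161, Lira162 and Lira164, against 414, 203 and 458 CPM in PBS155, PBS157 and PBS158. Its libraries varied several-fold within each group and overlapped (log2 fold change -0.63 ± 0.60, SE; adjusted p = 0.57, edgeR). Cyp3a25 had 649, 550.4 and 473 CPM with liraglutide and 692, 739 and 901 CPM with PBS (log2 fold change -0.48 ± 0.15, SE; adjusted p = 0.0837, edgeR). Cyp3a13 had 142, 131 and 145 CPM with liraglutide and 158.4, 194 and 174 CPM with PBS (log2 fold change -0.33 ± 0.11, SE; adjusted p = 0.083, edgeR). In Cyp3a13, Cyp3a25 and the scarcer Cyp3a59 (11.9 to 20.4 CPM with liraglutide, 22.9 to 24.3 CPM with PBS) all liraglutide libraries were below all PBS libraries. DESeq2's Wald test called Cyp3a25, with an adjusted p of 0.021. Cyp3a25 and Cyp3a59 differ in 38 of 1512 coding bases, so their counts may be mixed. Summed over the subfamily, Cyp3a genes had 901, 921 and 1011 CPM with liraglutide, against 1287, 1158 and 1557 CPM with PBS, which do not overlap.

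The calls differed in how far they rested on single libraries. Cyp2a12, Cyp2d22, Cyp2f2 and Cyp2j6 passed in edgeR whichever library was left out. Cyp1a2 lost its call without Lira161, PBS155 or PBS158, Cyp2r1 without Lira162 or PBS158, Cyp2d13 and Cyp2u1 without Lira161, Lira162 or PBS158, and Cyp2d40 without Lira161, Lira162, PBS157 or PBS158. All of these stayed lower with liraglutide in every such fit. Relative to the PBS mean, the median of the 10 called genes was -0.72 in Lira161, -1.07 in Lira162 and -0.70 in Lira164 on the log2 scale, against -0.04, -0.05 and 0.08 in PBS155, PBS157 and PBS158. These 10 were called for being lower, so a gap between the groups was built into their medians. Over all 27 tested members the median was -0.67 in Lira161, -0.60 in Lira162 and -0.42 in Lira164. In PBS155, PBS157 and PBS158 it was -0.06, -0.07 and 0.10. Lira162 was the lowest library over the called genes, and Lira161 over all tested members.

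Promoter sequences are shown for the abundant members with the largest differences, Cyp2a5 and Cyp1a2, and for 3 called genes whose call held whichever library was left out. RefSeq (GRCm38.p6) gave the 250 bases before the start for 26 of the 32 members with at least 10 counts and for 7 of the 10 called (Cyp2d13, Cyp2d22 and Cyp2u1 had no entry). Both strands were searched for TATAAA (the TATA box), GCGTG (the core bound by the aryl hydrocarbon receptor), AGGTCA (the core bound by many nuclear receptors), CAAAGTCCA (bound by HNF4) and TTGCNNAA (bound by C/EBP factors). Capitals mark any match. The windows are chr9:57683656-57683905 (minus strand) for Cyp1a2, chr7:26835089-26835338 (plus strand) for Cyp2a5, chr7:27028840-27029089 (plus strand) for Cyp2a12, chr7:27119705-27119954 (plus strand) for Cyp2f2 and chr4:96553652-96553901 (minus strand) for Cyp2j6.
Cyp1a2: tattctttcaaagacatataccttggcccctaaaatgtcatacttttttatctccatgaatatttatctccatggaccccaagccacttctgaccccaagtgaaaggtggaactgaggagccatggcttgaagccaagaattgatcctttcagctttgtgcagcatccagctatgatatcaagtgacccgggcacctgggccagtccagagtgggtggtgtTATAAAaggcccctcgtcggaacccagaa
Cyp2a5: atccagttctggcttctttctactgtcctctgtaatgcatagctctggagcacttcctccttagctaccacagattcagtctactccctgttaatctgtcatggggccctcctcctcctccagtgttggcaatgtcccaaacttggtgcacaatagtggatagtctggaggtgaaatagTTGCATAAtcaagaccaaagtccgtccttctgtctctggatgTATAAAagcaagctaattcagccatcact
Cyp2a12: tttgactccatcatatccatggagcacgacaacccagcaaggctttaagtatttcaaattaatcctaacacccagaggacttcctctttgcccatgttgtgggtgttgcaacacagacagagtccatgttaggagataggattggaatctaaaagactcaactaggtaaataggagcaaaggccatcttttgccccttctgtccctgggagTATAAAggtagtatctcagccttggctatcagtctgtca
Cyp2f2: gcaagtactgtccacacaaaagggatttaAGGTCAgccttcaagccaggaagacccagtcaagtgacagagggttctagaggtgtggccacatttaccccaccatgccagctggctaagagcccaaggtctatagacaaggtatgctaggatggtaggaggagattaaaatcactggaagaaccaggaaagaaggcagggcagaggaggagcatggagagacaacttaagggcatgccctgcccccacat
Cyp2j6: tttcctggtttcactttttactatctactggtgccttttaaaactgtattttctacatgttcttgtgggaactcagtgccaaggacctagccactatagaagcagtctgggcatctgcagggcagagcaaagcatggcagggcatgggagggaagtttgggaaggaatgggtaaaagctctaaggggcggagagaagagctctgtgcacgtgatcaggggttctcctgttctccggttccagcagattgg
A TATA box close to the start is visible in Cyp1a2, Cyp2a5 and Cyp2a12, a C/EBP match farther upstream in Cyp2a5, a nuclear receptor core in Cyp2f2, and no match in Cyp2j6.

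Across the members, TATAAA was the motif that stood out by count. It occurred in 14 of 26 member promoters, in 13.0% of all 27025 RefSeq promoters searched and in 6.69% of the 9443 of tested genes. Each gene was counted by its first listed start, and not every chromosome was included. Of the 7 called genes with a promoter, 4 held it: Cyp1a2, Cyp2a12, Cyp2d40 and Cyp2j5. AGGTCA occurred in 7 of 26 (13.8% of all promoters, 10.8% of those of tested genes), among the called genes in Cyp2f2 and Cyp2j5. TTGCNNAA occurred in 6 of 26 (9.55% of all, 7.70% of tested) and in no called gene. GCGTG occurred in 3 of 26 (28.2% of all, 44.7% of tested), Cyp1a1, Cyp1b1 and Cyp2j9. CAAAGTCCA occurred only in Cyp3a11 (0.381% of all, 0.402% of tested). A match is a string of letters and not a shown binding site, and elements farther from the start were not searched.

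Per kilobase of exon, Cyp2e1 led the members in both groups with 4684 ± 516 RPKM with liraglutide and 5110 ± 418 RPKM with PBS (SD, n = 3 each). Cyp2d9 came next in both, with 661 ± 149.6 RPKM with liraglutide and 715 ± 92.4 RPKM with PBS. Below it Cyp2d10, Cyp2d26 and Cyp2f2 changed places: Cyp2d10 had 541 ± 24.3 RPKM with liraglutide and 504 ± 46.1 RPKM with PBS, and Cyp2f2 had 311 ± 62.7 RPKM with liraglutide and 572 ± 2.26 RPKM with PBS. With liraglutide Cyp2f2 was below Cyp2d10 and Cyp2d26 in every library, whereas with PBS the Cyp2f2 level lay within the range of Cyp2d26 and above that of Cyp2d10.

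Genes that work with these enzymes moved in both directions. Of 11 redox partners and haem enzymes, all tested, 2 rose and 2 fell, with a median log2 fold change of -0.13. Over all tested genes 4.08% rose and 4.69% fell. Por, the reductase that passes electrons to these P450 enzymes, averaged 951 ± 127 CPM with liraglutide and 569 ± 112 CPM with PBS (log2 fold change 0.74 ± 0.17, SE, adjusted p = 0.0287, edgeR). Blvrb, a biliverdin and flavin reductase, also rose, with 133 ± 11.7 CPM with liraglutide and 84.7 ± 7.85 CPM with PBS (adjusted p = 0.00932, edgeR). The cytochrome b5 of the mitochondrial outer membrane, Cyb5b, fell, with 189 ± 27.5 CPM with liraglutide and 318 ± 50.2 CPM with PBS (adjusted p = 0.018, edgeR). The reductase Cyb5r3 fell as well, with 193 ± 21.01 CPM with liraglutide and 321 ± 31.8 CPM with PBS (adjusted p = 0.00936, edgeR). The more abundant Cyb5a, the other cytochrome b5 listed, was not called, and its groups overlapped. It averaged 860 ± 74.5 CPM with liraglutide and 988 ± 96.0 CPM with PBS (adjusted p = 0.349, edgeR). Alas1, the rate-limiting enzyme of haem synthesis in liver, did not pass (928 ± 254 CPM with liraglutide, 547 ± 234 CPM with PBS; adjusted p = 0.27, edgeR). The calls of Cyb5r3 and Blvrb held whichever library was left out, that of Por ended without Lira161, Lira162, PBS155 or PBS158, and that of Cyb5b without Lira161, Lira162 or PBS158. The list held 2 calls without Lira161, without Lira162 or without PBS158.

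Among the regulators, none of the receptors for foreign compounds passed the test. Nr1i2 averaged 148 ± 19.1 CPM with liraglutide and 104 ± 16.0 CPM with PBS (log2 fold change 0.51 ± 0.14, SE; adjusted p = 0.0553, edgeR). Nr1i3 averaged 275 ± 8.63 CPM with liraglutide and 318 ± 50.7 CPM with PBS (adjusted p = 0.341, edgeR), and Ahr 74.3 ± 18.7 CPM with liraglutide and 82.7 ± 18.3 CPM with PBS (adjusted p = 0.707, edgeR). Their shared partner Rxra (adjusted p = 0.496, edgeR) and the fatty acid receptor Ppara (adjusted p = 0.594, edgeR) were called in neither direction. Of the 19 regulators tested, 2 rose and 0 fell by edgeR, where 4.08% of all tested genes rose and 4.69% fell. Hnf4a averaged 1081 ± 78.7 CPM with liraglutide and 751 ± 85.6 CPM with PBS (log2 fold change 0.53 ± 0.13, SE; adjusted p = 0.0338, edgeR). Gadd45b, a stress-responsive coactivator of CAR in mouse liver, averaged 13.8 ± 7.43 CPM with liraglutide and 2.09 ± 1.48 CPM with PBS (log2 fold change 2.76 ± 0.60, SE; adjusted p = 0.0467, edgeR). The call of Hnf4a ended without Lira161, Lira162, PBS155 or PBS157, and that of Gadd45b without any library other than PBS158. The list held 0 calls without Lira161, Lira162 or PBS157, 1 without PBS155 and 6 without Lira164, where Nr1i2 was among them.

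Genes outside the P450 superfamily that are known targets of CAR, PXR or Ahr gave 7 lower and 0 higher calls among 20 tested, with a median log2 fold change of -0.31. Over all tested genes 4.69% were called lower and 4.08% higher. Among uncalled tested genes, Ephx1 was higher in all liraglutide libraries (603 ± 152 CPM, against 385 ± 36.2 CPM with PBS; adjusted p = 0.0569, edgeR). Gstm2 was lower in all of them (adjusted p = 0.105, edgeR). Aldh1a7, an aldehyde dehydrogenase, averaged 87.1 ± 3.49 CPM with liraglutide and 175 ± 27.8 CPM with PBS (log2 fold change -1.004 ± 0.12, SE; adjusted p = 0.00399, edgeR). Papss2, which makes the sulfate donor of conjugation, averaged 146 ± 21.96 CPM with liraglutide and 246 ± 6.41 CPM with PBS (log2 fold change -0.75 ± 0.12, SE; adjusted p = 0.00874, edgeR). The glutathione transferase Gsta4 (adjusted p = 0.0147, edgeR) and the retinaldehyde dehydrogenase Aldh1a1 (adjusted p = 0.0158, edgeR) also fell; for Aldh1a1 the fold was 2.01. The calls of Aldh1a7 and Papss2 held whichever library was left out, while those of Gsta4 and Aldh1a1 ended without Lira161, Lira162 or PBS158. The list held 3 calls without Lira161, 3 without Lira162 and 2 without PBS158.

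**Figure D5:**
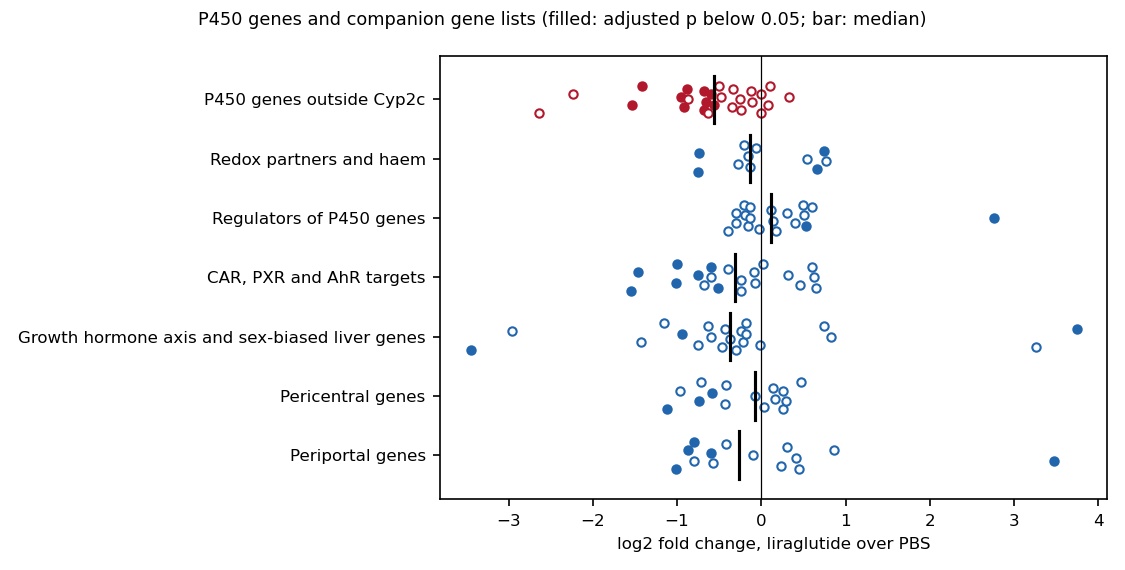
Log2 fold change, liraglutide over PBS, of the tested P450 genes (red) and of each companion list (blue; filled points, adjusted p under 0.05; vertical bar, median). The median is -0.56 for the P450 genes, and those of the companion lists run from -0.38 (growth hormone axis and sex-biased genes) to 0.12 (regulators).

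Markers of the cells a piece of liver can hold were read beside these results, as CPM summed over each list. Over all tested genes 8.77% were called. Hepatocyte markers held 65564 to 84052 CPM with liraglutide and 76755 to 97486 CPM with PBS, with 1 of 6 called, Hnf4a as higher. These sums were mostly Alb (51368 CPM with liraglutide, 68786 CPM with PBS). Of the uncalled, Cps1 was higher and Serpina1a lower in all liraglutide libraries than in any PBS library. Kupffer cell markers (195 to 319 CPM with liraglutide, 86.5 to 351 CPM with PBS) and stellate cell markers (289 to 341 CPM with liraglutide, 179 to 301 CPM with PBS) had no call. Endothelial markers had 229 to 352 CPM with liraglutide and 143 to 252 CPM with PBS, with 1 of 7 called, Clec4g as higher; 5 were called without PBS155 and 0 without Lira162, PBS157 or PBS158. PBS155 stood above the other PBS libraries in endothelial and macrophage markers, with 45.0 CPM of Kdr, against 18.9 and 18.0 CPM in PBS157 and PBS158, and 40.5 CPM of Marco, against 3.81 and 3.07 CPM. Without PBS155, 8 P450 members were called lower and 0 higher. Cholangiocyte markers summed to 26.5 to 28.6 CPM with liraglutide and 41.9 to 50.8 CPM with PBS. These sums were mostly Spp1 (20.5 CPM with liraglutide, 36.3 CPM with PBS), the 1 of 5 that was called. Sox9 was not called but was lower in all liraglutide libraries (adjusted p = 0.148, edgeR), while Krt19, Krt7 and Epcam overlapped between the groups. Erythroid markers summed to 42.9 to 100.3 CPM with liraglutide and 152 to 165 CPM with PBS, with Hba-a1 at 0 and Alas2 the 1 of 2 tested that was called, a call that ended without Lira164 or any PBS library. Their part in the P450 results was not tested.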

How the data were processed

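RNA from 6 liver libraries (3 liraglutide, 3 PBS) was sequenced. The authors deposited gene counts as whole numbers without normalisation. Per the submitters' processing notes, STAR and mm10 were used. The sources used here do not name the counting tool, its strand setting or its handling of multiply matching reads. Columns were assigned to groups by name; their numbers match no triplicate number of the labels.

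Genes were filtered with filterByExpr (12626 of 16949 with a count kept), normalised by TMM and tested with edgeR 4.0.16 in R 4.3.3 (glmQLFit, robust, then glmQLFTest) on a model of group alone. Two-sided p-values were adjusted by Benjamini-Hochberg over all tested genes. Standard errors were obtained as log2 fold change over the square root of F. CPM use TMM-adjusted library sizes, shares of counts use raw totals, and RPKM are CPM per kilobase of union exon length in GENCODE M21 (GRCm38, the assembly mm10 names), which gave positions, coding sequences and windows. The procedure was tested on simulated counts. Library totals of 20888991 to 27007182 counts limit the precision of low genes, and floors cover counting error only.

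Members and companion lists were chosen with earlier results of these data known. Named with values were members past the threshold, with a mean CPM of at least 50 or a log2 fold change of at least 1 in size, and up to 4 called genes per companion list with the smallest p, besides fixed regulators. Alternatives were DESeq2 1.42.0 size factors or library totals, no filter, a mean CPM of at least 5, the DESeq2 Wald test, limma-voom (limma 3.58.1), the 10 most abundant genes left out, and each library left out.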

Additional observations from a re-analysis of the deposited data

How the results depend on the processing

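Of the 344 comparisons of a member with its value under an alternative, 299 kept direction and side of the threshold, 26 lost the call and 7 gained it. In the other 12 the estimate changed sign while uncalled in both; these were of 5 members, Cyp1a1, Cyp1b1, Cyp2a22, Cyp2b9 and Cyp2j9. No called value changed sign. The number of members called lower was 10, and 8 to 13 under other scalings, filters and tests; 0 were called higher under any alternative run. With single libraries left out it lay between 4 (without PBS158) and 11 (without Lira164), and was 5 without Lira161 and 5 without Lira162. Over all tested genes the 1107 calls became 393 to 1496, and the 24 calls over the companion lists 9 to 37. DESeq2's Wald test called 1621 genes and added Cyp2a5, Cyp2g1 and Cyp3a25 among the members. With library totals 57.2% of called genes were higher, against 46.5% with TMM factors, and 9 members were called lower, 8 of the 10 and Cyp2a5; the members' median stayed between -0.60 and -0.48 in every setting. Cyp2u1 lost its call with library totals or no filter, Cyp1a2 with no filter, and Cyp2j5 with DESeq2 size factors, library totals or the filter at 5 CPM; the cause was not tested. Depth limits Cyp2g1, Cyp2b9, Cyp2d11 and Cyp1a1 and the members too low to test. No paired analysis was possible because the column numbers match no triplicate number of the labels.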

Other observations

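Growth hormone axis and sex-biased liver genes outside the P450 superfamily gave calls in both directions. Of 21 tested, 1 rose and 2 fell, where 8.77% of all tested genes were called, with a median log2 fold change of -0.38. Ghr, the growth hormone receptor, averaged 352 ± 99.2 CPM with liraglutide and 675 ± 16.5 CPM with PBS (adjusted p = 0.0183, edgeR). Selenbp2, a male-biased selenium-binding protein, averaged 32.1 ± 18.8 CPM with liraglutide and 351 ± 18.3 CPM with PBS (log2 fold change -3.45; adjusted p = 0.019, edgeR). A1bg, higher in female mice, averaged 1.58 ± 1.04 CPM with liraglutide and 0.107 ± 0.0709 CPM with PBS (adjusted p = 0.0121, edgeR). Some uncalled genes also had groups that did not overlap. Hsd3b5 averaged 39.0 ± 55.9 CPM with liraglutide and 304 ± 61.4 CPM with PBS (adjusted p = 0.3, edgeR). Igf1, Serpina1e and Nox4 were likewise lower in all liraglutide libraries. Cux2 was higher, with 3.75 ± 3.61 CPM with liraglutide and 0.390 ± 0.152 CPM with PBS (adjusted p = 0.0535, edgeR). The list held 7 calls without Lira164 and 0 without PBS158; the call of Ghr also ended without Lira161, and that of Selenbp2 without Lira161, PBS155 or PBS157.

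Of genes with a known place along the liver lobule, a minority on each side of it was called lower. The median log2 fold change was -0.07 for the pericentral list and -0.26 for the periportal list. Over all tested genes 4.69% were called lower. Of 15 pericentral genes tested, 0 rose and 3 fell: the ammonium transporter Rhbg, the ascorbate-synthesis enzyme Gulo (322 ± 75.2 CPM with liraglutide, 537 ± 60.1 CPM with PBS; adjusted p = 0.0288, edgeR) and Lect2. Glul, glutamine synthetase of the cells next to the central vein, averaged 1120 ± 238 CPM with liraglutide and 1180 ± 29.4 CPM with PBS (adjusted p = 0.804, edgeR). Of 14 periportal genes tested, Apoa4 rose and Cdh1, Gls2, Hal and Pigr fell. Gls2, the liver glutaminase, averaged 124 ± 17.0 CPM with liraglutide and 249.6 ± 13.2 CPM with PBS (log2 fold change -1.01 ± 0.12, SE; adjusted p = 0.00391, edgeR). The call of Gls2 held whichever library was left out. The pericentral list held 1 call without Lira161, PBS155 or PBS158, 0 without Lira162 and 5 without Lira164. The periportal list held 2 calls without Lira161 or PBS158, 1 without Lira162, 8 without Lira164 and 3 without PBS155 or PBS157.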
